A study of Mus musculus with 24 samples.

Results

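Bone from old female mice, 18 months of age, was compared with bone from adult female mice, 6 months of age, on 12 of the 24 arrays of the series, 6 at each age. Every array labelled with 1 of these ages was taken, and genotype entered the comparison as a block. At each age 3 arrays came from wild-type mice and 3 from HSD2OB-tg mice, which carry a transgene that places 11-beta hydroxysteroid dehydrogenase type 2, an enzyme that inactivates glucocorticoids, in osteoblasts. The labels do not name the promoter that drives the transgene or the strain of either genotype. RNA came from tibiae and femur, and marrow had been flushed out of the tibia, so cells of the femoral marrow and of tissue attached to either bone could contribute. The series calls the 3 arrays of a group biological triplicates, and the labels do not say whether an array holds 1 animal or a pool. The p-values therefore measure the spread between these samples. Each array, an Affymetrix Mouse Gene 2.1 ST chip, gave 1 log2 value per probe set, and 22180 genes were compared. The remaining 12 arrays, from mice of 3 and 12 months, serve below as reference levels and enter only the alternative fits over all 24 arrays.

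Bone is built by osteoblasts, which lay down a matrix of type I collagen and mineral, and some of them become osteocytes, embedded cells that sense load and secrete regulators such as sclerostin. Osteoclasts, which descend from the monocyte lineage, resorb the matrix, and the marrow beside it holds blood-forming cells, plasma cells and fat cells. Ageing of the mouse skeleton is known for loss of trabecular bone and for marrow that becomes richer in fat.

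Defining markers of bone were present. Col1a1, the main collagen of bone, read between 10.83 and 12.49, and the osteoclast protease gene Ctsk between 8.06 and 9.95 on the 12 arrays. Other tissues were present too. Of the 6 arrays from 6-month mice, 3, wild-type replicate 2 and HSD2OB-tg replicates 1 and 2, stood apart through transcripts of liver, kidney and heart. The mean of 16 liver genes was 5.21, 4.81 and 5.05 on these 3 arrays, against 2.03 to 2.26 on the other 3 from that age and 2.08 to 2.32 at 18 months. Kidney genes read 3.12 to 3.42 on the 3 arrays and at most 2.06 elsewhere, and heart genes 4.37 to 4.97 against at most 3.50. Markers of lung and pancreas were not raised there. Skeletal muscle was the other source of spread: the mean of 19 muscle genes was 6.84 in wild-type replicate 1 and 8.89 in HSD2OB-tg replicate 1 at 18 months, and 9.44 to 10.69 on the other 10 arrays. The source names hold a code with 1 of 3 prefixes, whose meaning is not stated. One prefix occurs at both ages, on 3 arrays at 6 months and 4 at 18 months, the second only at 6 months and the last only at 18 months. The 3 arrays with liver transcripts are exactly the 6-month arrays with the shared prefix, and the 2 arrays low in muscle are those with the prefix seen only at 18 months. Values without some or all of these 5 arrays are given beside the lists where they differ most. Over the 12 arrays, a fit with the prefix as a fixed term takes its age difference only from the shared prefix. All 3 adult arrays with that prefix carry liver transcripts, so such a fit does not separate age from them.

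**Figure D1:**
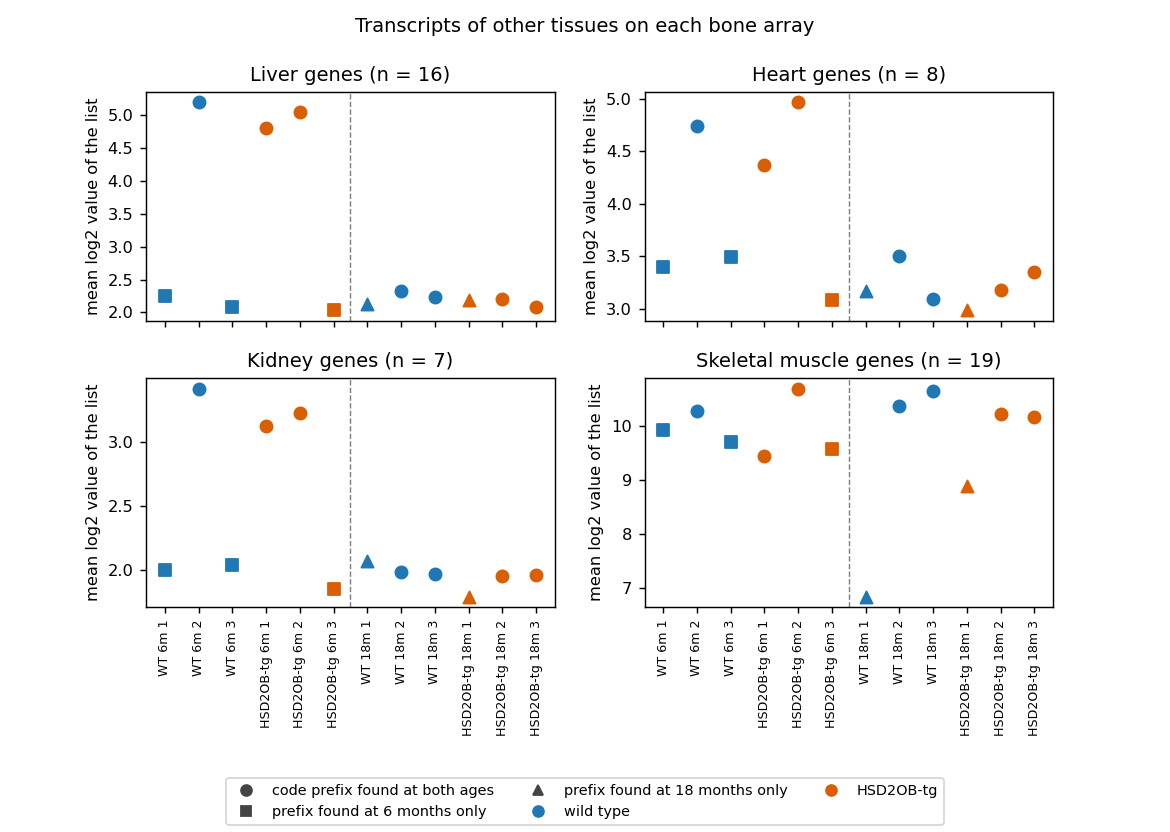
Mean log2 value of 16 liver, 8 heart, 7 kidney and 19 skeletal muscle genes on each of the 12 arrays, 1 point per array, with 6-month arrays left of the dashed line; shape gives the code prefix and colour the genotype. The liver mean is 4.81 to 5.21 on 3 of the 6-month arrays and at most 2.32 on the other 9, and the muscle mean is lowest, at 6.84, in wild-type replicate 1 of 18 months.

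Of 22180 genes, 1 differed between the ages at a limma adjusted p under 0.05, and it was higher at 18 months (0.00451% of genes). Without adjustment 1373 genes (6.19%) had a p under 0.05, of which 795 (3.58%) were higher and 578 (2.61%) lower at 18 months. In 52 genes (0.234%) every old array lay above every adult array, and in 28 genes (0.126%) every old array lay below. The median difference over all genes was -0.0064 on the log2 scale, and 48.2% of genes lay above 0. Rows of the table with several gene symbols gave 1 further call among 1814, and rows without a symbol gave 0 among 15699 (962 with an unadjusted p under 0.05).

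The called gene was Gm4951, a predicted gene on the array's annotation. It falls outside the rule by which genes are named here, and was singled out after its values were seen. The lowest, median and highest log2 values were 5.80, 6.07 and 6.26 at 6 months and 6.85, 7.0 and 7.45 at 18 months. The groups did not overlap, and each genotype was higher at 18 months. It rose by 1.03 ± 0.12 (SE, n = 6 arrays per age), or 2.05-fold, at a limma adjusted p of 0.0268. The call depended on single arrays: it held without 2 of the 12 arrays, 18-month wild-type replicate 1 or HSD2OB-tg replicate 2, and was lost without any other single array, with adjusted p up to 0.139 and differences between 0.95 and 1.09. Without the 3 arrays that carried liver transcripts the difference was 1.01 with an adjusted p of 0.182. With the code prefix and the liver mean as terms together it was -0.87 ± 2.05 (adjusted p = 0.911), a fit in which these terms and genotype accounted for 99.7% of the variation of the age term. Its median was 7.77 at 12 months and 6.34 at 3 months, so the highest median of the 4 ages fell at 12 months.

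All genes described from here on missed the adjusted threshold, so their differences are given as values. Members of a list that had no row with a single symbol are not counted. Every ± is, unless an SD is named, the SE of a fitted difference, 18 minus 6 months on the log2 scale, over 6 arrays per age. A gene list is described by its median difference and by how many members had an unadjusted p under 0.05, beside the shares just given for all genes. List members named beyond the 2 with the largest difference in each list were picked after their values were seen. The genes of lowest p were chosen on these same arrays, so a lack of overlap between the ages follows largely from that choice. It adds no weight to their p-values. In whole bone, a change in the number of cells of a type and a change in RNA per cell cannot be told apart.

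**Figure D2:**
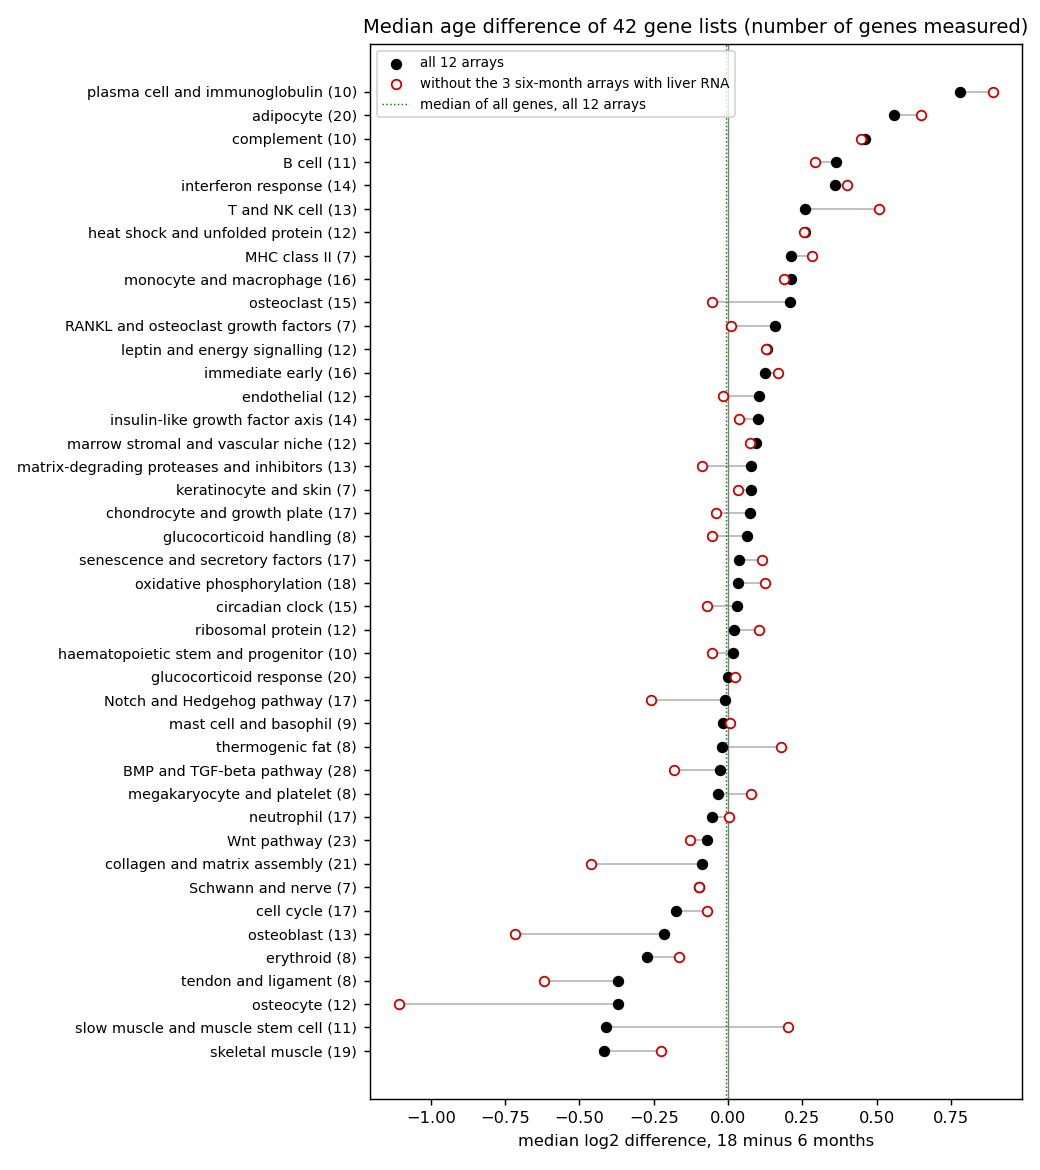
Median log2 difference, 18 minus 6 months, of 42 gene lists over all 12 arrays (filled) and without the 3 six-month arrays that carried liver transcripts (open), with the number of genes measured in brackets. Plasma cell and adipocyte genes lie farthest to the right in both, at 0.78 and 0.56 over all 12 arrays, and the osteocyte median moves from -0.37 to -1.11 when the 3 arrays are left out.

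The list with the highest median difference was that of plasma cells, the antibody-secreting end stage of the B lineage. All 10 measured members of 15 lay higher at 18 months, all 10 with an unadjusted p under 0.05, and their median difference was 0.78. The mean of the list was 6.47, 6.58 and 7.29 at 6 months and 6.96, 7.54 and 8.21 at 18 months, so the highest adult array, HSD2OB-tg replicate 1, lay inside the old range. Irf4, a transcription factor needed for plasma cell fate, read 5.61, 5.93 and 6.49 (lowest, median, highest) in adult bone and 6.43, 6.71 and 7.05 in old bone. Only the edges of these groups touched, and the difference was 0.77 ± 0.14 (limma adjusted p = 0.242). Tnfrsf17, the receptor BCMA that sustains long-lived plasma cells, had medians of 2.85 at 6 months and 4.08 at 18 months, a difference of 1.03 ± 0.30 (limma adjusted p = 0.598) with ranges that overlapped. Ighg3, which encodes an immunoglobulin heavy chain constant region, had the largest and the noisiest difference of the list at 1.53 ± 0.59 (limma adjusted p = 0.728). Its values ran from 6.22 to 9.80 at 6 months and from 7.72 to 11.16 at 18 months, and it was measured by 2 probe sets of which the brighter is given. Derl3, a component of the export machinery for misfolded secretory proteins, was the one member whose groups did not overlap, at 1.02 ± 0.23 (limma adjusted p = 0.36). The list's median was 0.89 without the 3 arrays with liver transcripts and 0.79 without the 2 low in muscle.

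Pou2af1, a coactivator of immunoglobulin genes in B cells and plasma cells, belonged to no list and showed the same direction with less overlap. Its log2 values were 6.23, 6.84 and 7.51 in the adult group and 7.57, 7.78 and 8.19 in the old group, and every old array lay above every adult array. The difference was 0.94 ± 0.17 (limma adjusted p = 0.242), 0.94 in wild-type and 0.95 in HSD2OB-tg bone. Earlier B cell genes differed less. Of 11 B cell genes 10 lay higher, with a median difference of 0.36, and 3 had an unadjusted p under 0.05, Vpreb3, Cd79b and Blnk. The B cell median was 0.22 without the 5 arrays that stand apart. Vpreb3, expressed in B cell precursors, differed by 0.60 ± 0.25, and Igll1, part of the surrogate light chain of the precursor's receptor, by 0.59 ± 0.47 (limma adjusted p = 0.753 and 0.9).

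Immune genes outside the B lineage came next. Fcgr1, the high-affinity receptor for immunoglobulin G on monocytes and macrophages, had the lowest p after Gm4951 among named genes. It read 5.06, 5.58 and 5.74 in adult bone and 6.09, 6.53 and 6.81 in old bone. No adult array reached the lowest old array. The difference was 1.00 ± 0.15 (limma adjusted p = 0.097), a 2.00-fold higher level, and 0.80 without the 3 arrays with liver transcripts. With the code prefix as a term it was 1.22 and passed, at an adjusted p of 0.0189, and it also passed with a replicate block (adjusted p = 0.0436). The prefix fit compares the ages only within the shared prefix, whose 3 adult arrays carry liver transcripts. Fcgr1 did not pass within the shared prefix or without the 3 arrays (adjusted p = 0.145 and 0.292), and over all alternatives the adjusted p ran from 0.0189 to 0.944.

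Slfn5 and Parp14, both induced by interferon in many cells, also separated the ages completely. Slfn5, a Schlafen family member, read 5.10, 5.46 and 5.74 at 6 months and 5.89, 6.03 and 6.6 at 18 months, a difference of 0.65 ± 0.11 (limma adjusted p = 0.242). Parp14, an ADP-ribosyltransferase, had narrow groups: 6.96, 7.15 and 7.27 against 7.5, 7.67 and 7.72, a difference of 0.50 ± 0.08 (limma adjusted p = 0.242). Cd244a, a SLAM family receptor of NK cells and monocytes, read 5.06, 5.21 and 5.41 at 6 months and 5.59, 5.80 and 6.07 at 18 months, again without overlap and with a difference of 0.61 ± 0.11 (limma adjusted p = 0.246). In the 14 measured genes of the interferon list 10 lay higher, 5 had an unadjusted p under 0.05 and the median difference was 0.36. Oas2, which makes the second messenger that activates RNase L, differed by 1.20 ± 0.33, and Zbp1, a sensor of Z-form nucleic acids, by 1.10 ± 0.25 (limma adjusted p = 0.537 and 0.36). Oas2 ran from 4.38 to 5.37 in adult and from 5.06 to 7.18 in old bone, and Zbp1 from 4.42 to 5.74 and from 5.55 to 6.90, so both overlapped at the edge. The 5 with a low p were Oas2, Zbp1, Oasl2, Ifit1 and Irf7, while Rsad2, Bst2, Ifit3 and Ifit2 lay lower, at -0.17 to -0.03.

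The start regions of these genes were searched for the 2 elements through which interferon acts. The interferon-stimulated response element was searched as 2 copies of TTTC with any 2 bases between them and the gamma-activated sequence as TTCNNNGAA, on both strands, in 250 bases before and 50 bases after each start in RefSeq (GRCm38.p6). Of the 8 genes with the lowest p among those higher at 18 months, 5 had a promoter in the table, and the 2 that held a match are shown with the match in capitals, since they separated the ages without overlap. Fcgr1 lies on the minus strand at chr3:96293920-96294219, with a gamma-activated sequence that begins 109 bases before the start, and Slfn5 on the plus strand at chr11:82951852-82952151, with an interferon-stimulated element, on the opposite strand, that begins 155 bases before it.
Fcgr1: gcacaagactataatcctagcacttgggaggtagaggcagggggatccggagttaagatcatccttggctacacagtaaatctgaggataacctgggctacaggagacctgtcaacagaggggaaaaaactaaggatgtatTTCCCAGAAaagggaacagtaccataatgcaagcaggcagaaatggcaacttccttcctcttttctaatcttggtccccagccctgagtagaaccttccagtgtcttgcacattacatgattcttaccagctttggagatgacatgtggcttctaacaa
Slfn5: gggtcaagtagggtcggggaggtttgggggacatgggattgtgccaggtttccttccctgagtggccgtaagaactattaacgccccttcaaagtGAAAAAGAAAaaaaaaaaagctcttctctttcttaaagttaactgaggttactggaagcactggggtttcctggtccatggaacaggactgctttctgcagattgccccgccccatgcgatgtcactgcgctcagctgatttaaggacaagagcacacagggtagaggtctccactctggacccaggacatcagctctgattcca

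Matches are letters, not shown binding sites. The response element was in 1 of the 5 promoters, in 6 of 10 promoters of the interferon list and in 3.44% of all 32851 promoters of this length. The gamma-activated sequence was in 1 of the 5, in 2 of the 10 and in 8.3% of all promoters.

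Complement genes, which encode the serum cascade that tags cells and debris, lay higher in all 10 measured members, 6 of them with an unadjusted p under 0.05, and their median difference was 0.46 (0.45 without the 3 arrays with liver transcripts). C4b, the central component of the classical and lectin routes, read 6.18, 6.6 and 6.88 in adult and 6.74, 8.04 and 8.17 in old bone. All 3 old wild-type arrays lay near the top of that range and the HSD2OB-tg arrays were spread over it, with 1 below the highest adult array. The difference was 1.12 ± 0.22 (limma adjusted p = 0.324). Cfb, the protease of the alternative route, differed by 0.70 ± 0.17 (limma adjusted p = 0.445). Cfp, or properdin, which stabilises that route, was the only member without overlap, at 0.46 ± 0.13 (limma adjusted p = 0.585). The 6 with a low p were C4b, Cfb, C1qa, C2, C1qb and Cfp.

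Macrophage genes lay higher in 13 of 16, with a median difference of 0.21, and 5 of these had an unadjusted p under 0.05, which were Fcgr1, C1qa, C1qb, Mrc1 and Vcam1. The list shares its C1q genes with the complement list, and its median was 0.11 without the 2 old arrays low in muscle and 0.12 without all 5. Gpnmb, a glycoprotein of macrophages and osteoclasts, went the other way: values of 7.30, 8.20 and 8.88 at 6 months stood against 6.95, 7.17 and 8.03 at 18 months, a difference of -0.89 ± 0.28 with an unadjusted p under 0.05 (limma adjusted p = 0.649). Class II antigen presentation genes were higher in 6 of 7, with H2-Eb1 at 0.89 ± 0.41 and H2-Ab1 at 0.56 ± 0.20 (limma adjusted p = 0.805 and 0.7). The class II median was 0.21, and 0.01 once the code prefix was a term and 0.13 without the 2 arrays low in muscle. Neutrophil genes, among them the granule proteins of marrow, had a median of -0.05 over 17 genes, and 1, Chil3, had an unadjusted p under 0.05, in the lower direction. Fcnb, a lectin of maturing neutrophils, was the exception in size at 1.13 ± 0.54 (limma adjusted p = 0.811), and its adult values spread from 5.30 to 8.64.

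T cell genes were mixed. Cd3e, a signalling chain of that complex, read 4.93, 5.32 and 5.48 in adult and 5.54, 6.15 and 6.95 in old bone with no overlap, and differed by 0.91 ± 0.20 (limma adjusted p = 0.36). Cd3g, a second chain, differed by 0.79 ± 0.27 (limma adjusted p = 0.669) with overlap. The coreceptor genes Cd8a and Cd4 lay near or below 0: Cd8a differed by -0.01 ± 0.24 and Cd4 by -0.19 ± 0.27 (limma adjusted p = 0.999 and 0.95). Over the 13 measured T and NK genes the median was 0.26, with 8 higher and 3 at an unadjusted p under 0.05 (Cd3e, Cd3g and Ccl5), and 0.51 without the 3 arrays with liver transcripts.

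**Figure D3:**
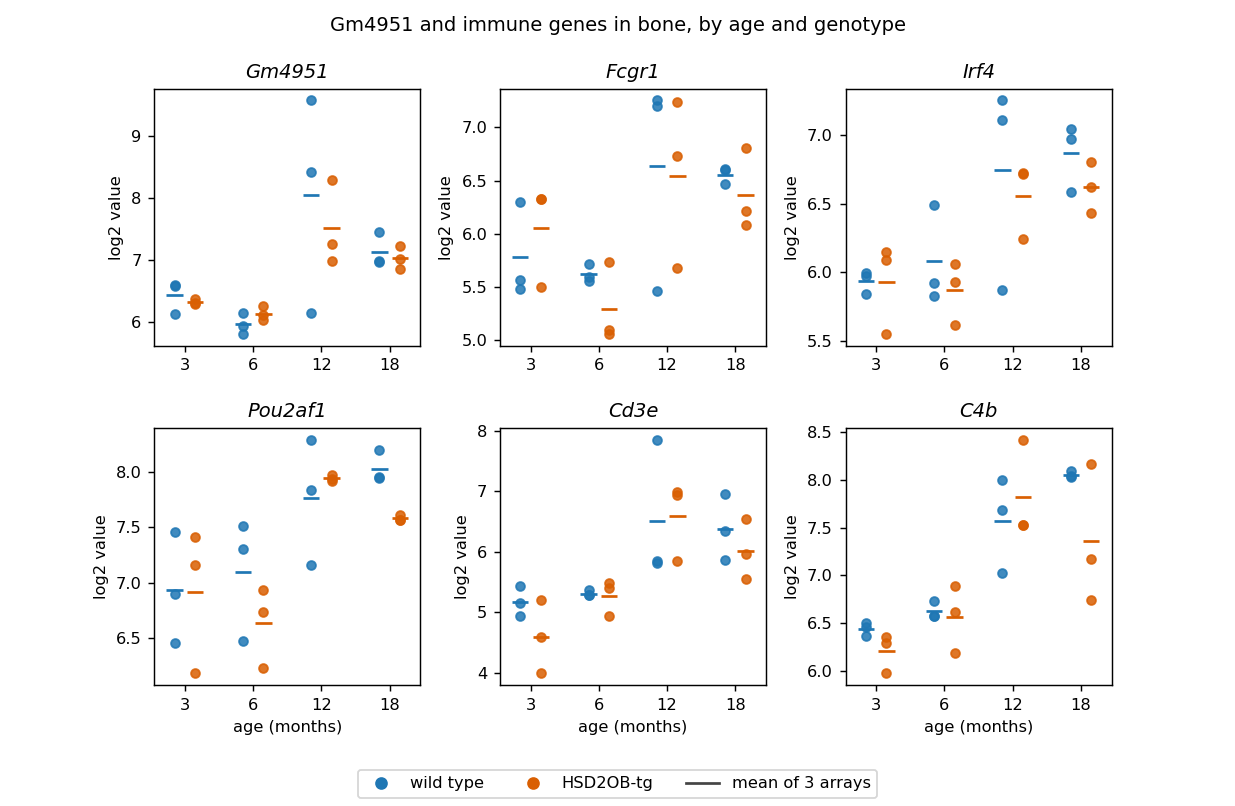
Log2 values of Gm4951, Fcgr1, Irf4, Pou2af1, Cd3e and C4b at 3, 6, 12 and 18 months, 1 point per array and a bar at the mean of 3 arrays, by genotype. At 18 months all 6 arrays lie above all 6 of 6 months for Gm4951, Fcgr1, Pou2af1 and Cd3e, and the 12-month arrays of Gm4951 and Fcgr1 spread widest.

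The reference ages placed these immune genes differently. For Fcgr1 the medians at 3, 6, 12 and 18 months were 5.93, 5.58, 6.96 and 6.53, for Irf4 5.98, 5.93, 6.72 and 6.71, and for Cd3e 5.04, 5.32, 6.39 and 6.15. In all 3 the 12-month median was at or above that of 18 months. The plasma cell list had a median of 7.28 at 12 months and 6.18 at 3 months, and the interferon list 5.65 and 5.38, so adult bone of 6 months had the lowest interferon level of the 4 ages. No test was made between 12 and 18 months here.

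Fat cell genes were the second list by median. In all, 18 of 20 measured members lay higher at 18 months, 10 with an unadjusted p under 0.05, and the median difference was 0.56. The mean of the list was 6.36, 6.61 and 6.74 at 6 months and 6.61, 7.23 and 8.09 at 18 months. The old group was split: 3 arrays, wild-type replicates 2 and 3 and HSD2OB-tg replicate 1, stood at 7.70 to 8.09, and the other 3 lay within or just above the adult range.

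Plin1, the protein that coats the lipid droplet of fat cells, read 4.04, 4.35 and 5.08 at 6 months and 4.79, 6.49 and 7.64 at 18 months, the largest difference in the 42 lists at 1.79 ± 0.45, or 3.47-fold (limma adjusted p = 0.489). Scd1, the desaturase that makes monounsaturated fatty acids, read 8.02, 8.38 and 9.22 at 6 months and 9.0, 10.22 and 11.15 at 18 months, a difference of 1.64 ± 0.37 (limma adjusted p = 0.363). Lep, the fat cell hormone that signals energy stores, read 1.23, 1.73 and 3.62 at 6 months and 2.00, 2.78 and 4.72 at 18 months, and differed by 1.24 ± 0.47 (limma adjusted p = 0.719). In Plin1 and Scd1 the upper old arrays were far above adult bone and the lower ones overlapped with it. Most old Lep values lay within the adult range, and the Lep median at both ages was below that of all probe sets (3.56 to 3.64). Pparg, the master regulator of fat cell formation, and Adipoq, which encodes adiponectin, lay higher by 0.63 ± 0.18 and 0.57 ± 0.19 (limma adjusted p = 0.592 and 0.663). Only Cd36, a fatty acid transporter, and Slc2a4, the insulin-regulated glucose transporter, both also made by muscle, lay lower, at -0.16 and -0.06. Leaving out the 3 arrays with liver transcripts gave a list median of 0.65, with 19 of 20 higher, and leaving out single arrays gave 0.41 to 0.68. Median Plin1 values were 3.82 at 3 months and 5.78 at 12 months, so the median was higher at each later age.

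Genes of thermogenic fat did not share this over all 12 arrays, where their median was -0.02 with 4 of 8 higher. The median was 0.18 without the 3 arrays with liver transcripts (5 of 8 higher), 0.12 without the 2 low in muscle and 0.13 without all 5. Ucp1, the uncoupling protein of brown fat, differed by -0.13 ± 0.18 (limma adjusted p = 0.946), and Tmem26, a beige fat marker, by 0.43 ± 0.12 (limma adjusted p = 0.592). Ppargc1a, a coactivator of mitochondrial biogenesis that muscle also makes, differed by 0.59 ± 0.46 (limma adjusted p = 0.898) over values that ran from 3.69 to 7.08 in old bone. Among genes that receive the leptin signal, the receptor Lepr, which also marks marrow stromal cells, differed by 0.35 ± 0.20 and the feedback inhibitor Socs3 by 0.23 ± 0.13 (limma adjusted p = 0.85 and 0.84). The leptin and energy list had a median of 0.13 over 12 genes, of which only Lep had an unadjusted p under 0.05. Lipg, endothelial lipase, was among the 8 genes with the lowest p: 4.16, 4.47 and 4.68 in adult bone and 4.90, 5.04 and 5.32 in old bone did not overlap, and the difference was 0.62 ± 0.11 (limma adjusted p = 0.242).

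Bone-forming cells showed the opposite direction, and the size differed with and without the 3 arrays that carried liver transcripts. Osteocyte genes lay lower at 18 months in 11 of 12, with a median difference of -0.37, and 4 had an unadjusted p under 0.05, of which 3 were lower (Sost, Mepe and Dkk1) and 1 higher (Fgf23). Osteoblast genes lay lower in 11 of 13, with a median of -0.21 and 0 at an unadjusted p under 0.05. At 6 months the osteocyte mean was 5.92 to 6.69 on the 3 arrays with liver transcripts and 7.25 to 7.56 on the other 3, and at 18 months 5.88 to 7.08. Without the 3 arrays the osteocyte median was -1.11 and the osteoblast median -0.72, with 0 of 13 osteoblast genes higher. All remaining 6-month arrays then carry the prefix that is absent at 18 months, so age and prefix cannot be told apart in those values. Leaving out only HSD2OB-tg replicate 3 of 18 months gave an osteoblast median of 0.02. With the prefix as a term the medians were -0.09 and -0.05, but that fit compares the ages only within the shared prefix. The 3 adult arrays with that prefix are those with liver transcripts. The part of the liver, kidney and heart transcripts in the bone cell differences was not tested.

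Sost, which encodes sclerostin, the osteocyte's inhibitor of Wnt signalling and bone formation, read 7.37, 8.70 and 9.51 in adult and 6.56, 7.40 and 7.99 in old bone. The groups overlapped, and the highest 4 values of all 12 were adult. The difference was -1.13 ± 0.36 (limma adjusted p = 0.655), and -1.82 without the 3 arrays (adjusted p = 0.212). Mepe, a matrix phosphoglycoprotein that restrains mineralization, read 7.44, 9.0 and 9.71 at 6 months and 7.19, 7.91 and 8.29 at 18 months, a difference of -0.96 ± 0.36 (limma adjusted p = 0.719), and -1.75 without the 3 arrays. Fgf23, the osteocyte hormone of phosphate balance, was the 1 osteocyte gene above 0, at 0.62 ± 0.18 (limma adjusted p = 0.592). Tnfrsf11b, the decoy receptor osteoprotegerin that blocks osteoclast formation, differed by -0.62 ± 0.35 (limma adjusted p = 0.841), while its target Tnfsf11, or RANKL, differed by 0.16 ± 0.29 (limma adjusted p = 0.963).

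Bglap, or osteocalcin, the late osteoblast protein, read 4.63, 5.17 and 5.74 at 6 months and 3.69, 4.59 and 5.57 at 18 months, a difference of -0.59 ± 0.29 (limma adjusted p = 0.823) with ranges that overlapped. Its medians at 3 and 12 months were 6.62 and 4.65, so young bone stood well above the other 3 ages. Sp7, the osteoblast transcription factor osterix, differed by -0.48 ± 0.43 and Col1a1 by -0.01 ± 0.29 (limma adjusted p = 0.909 and 0.999), and -1.14 and -0.32 without the 3 arrays. Bmp8a and Panx3 were the 2 osteoblast genes that lay above 0 over all 12 arrays. Collagen and matrix assembly genes had a median of -0.09 over 21 genes, 4 of them higher (Col6a1, Col6a2, Col6a3 and Pcolce), 0.05 without HSD2OB-tg replicate 3 of 18 months, 0.16 with the prefix as a term and -0.46 without the 3 arrays. Col3a1, the fibrillar collagen of soft tissue, differed by -0.81 ± 0.44, and Lum, a proteoglycan of collagen fibrils, by -0.50 ± 0.40 (limma adjusted p = 0.835 and 0.898).

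**Figure D4:**
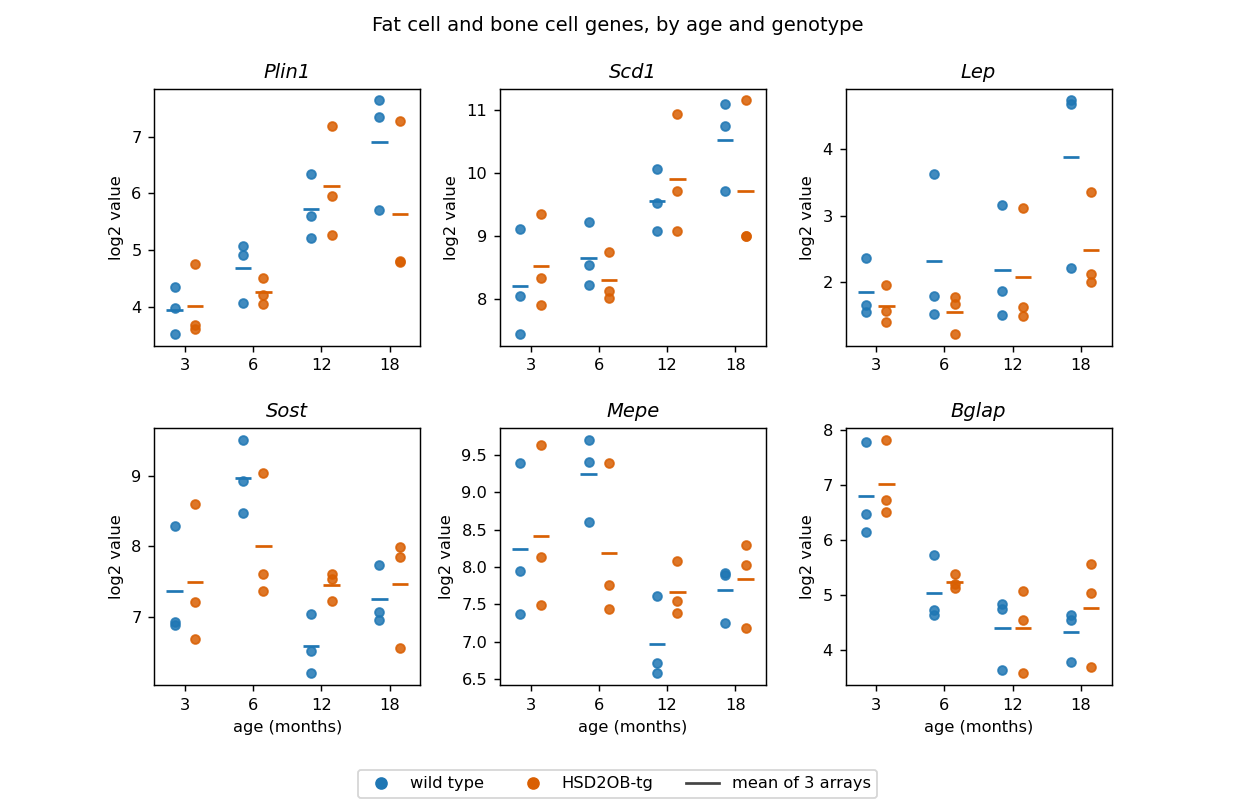
Log2 values of the fat cell genes Plin1, Scd1 and Lep and the bone genes Sost, Mepe and Bglap at 3, 6, 12 and 18 months, 1 point per array and a bar at the mean of 3 arrays, by genotype. Plin1 runs from 4.04 to 5.08 at 6 months and from 4.79 to 7.64 at 18 months, and for Sost the 3 wild-type arrays of 6 months lie above all arrays of 18 months.

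Osteoclast genes lay higher in 13 of 15, with a median of 0.21, and this direction did not last: without the 3 arrays with liver transcripts 7 of 15 were higher and the median was -0.05. Ctsk, the protease that digests bone collagen, read 8.06, 8.46 and 9.78 in adult and 8.27, 9.07 and 9.95 in old bone, a difference of 0.48 ± 0.32 (limma adjusted p = 0.88) within overlapping groups. Dcstamp, required for fusion of osteoclast precursors, differed by 0.52 ± 0.42 (limma adjusted p = 0.901), and -0.16 without the 3 arrays. Clcn7, the chloride transporter of the resorption pit, was the only one with an unadjusted p under 0.05, at 0.29 ± 0.11 (limma adjusted p = 0.709). Mmp13, the collagenase of osteoblasts and hypertrophic chondrocytes, differed by 0.77 ± 0.38 (limma adjusted p = 0.816). Mmp12, the macrophage elastase, was among the 8 genes with the lowest p in the downward direction. It read 4.11, 5.23 and 5.67 at 6 months and 2.92, 3.99 and 4.35 at 18 months, with a small overlap, and differed by -1.29 ± 0.27 (limma adjusted p = 0.338).

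Cartilage genes had a median difference near 0 that turned its sign without single arrays. HSD2OB-tg replicate 2 of 18 months had a mean of 6.48 over 17 chondrocyte genes, and the other 11 arrays 3.86 to 4.82. The median difference was 0.07, -0.14 without that array, -0.10 without HSD2OB-tg replicate 1 of 6 months and 0.30 without HSD2OB-tg replicate 3 of 18 months. Col10a1, the collagen of hypertrophic chondrocytes, read 2.52, 2.75 and 4.67 in adult and 2.86, 3.74 and 7.56 in old bone and differed by 1.30 ± 0.61 (limma adjusted p = 0.811), while Acan, the main proteoglycan of cartilage, differed by 0.00 ± 0.86 (limma adjusted p = 1).

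Skeletal muscle genes lay lower in 19 of 19, with a median of -0.42 and 0 at an unadjusted p under 0.05. This rested on the 2 old arrays low in muscle: without wild-type replicate 1 of 18 months the median was 0.15, without both 0.42, and without all 5 arrays that stand apart 0.69. Myh2, a fast myosin heavy chain, read 8.50, 9.41 and 10.57 at 6 months and 6.05, 9.41 and 9.96 at 18 months, with nearly equal medians, and a difference of -0.78 ± 0.60 (limma adjusted p = 0.896). Slow muscle and satellite cell genes had a median of -0.41 over all arrays, 0.20 without the 3 arrays with liver transcripts, 0.17 without the 2 low in muscle and 0.01 without wild-type replicate 1 of 18 months alone. Without all 5 arrays their median was 1.04, with 10 of 11 higher. It was -0.49 with the prefix as a term and -0.64 within the shared prefix. Tendon genes lay lower in 8 of 8, with a median of -0.37 (0.23 with the prefix as a term, -0.62 without the 3 arrays with liver transcripts and -0.15 without the 2 low in muscle), and Thbs4, a tendon matrix protein, differed by -0.63 ± 0.49 (limma adjusted p = 0.895). Without the 5 arrays, on 3 adult and 4 old arrays, 70 genes (0.316%) passed at a limma adjusted p under 0.05, 44 higher and 26 lower. Of the 44 that rose there, 42 had a correlation over 0.5 with the muscle mean within groups, against 13.4% of all genes. The correlation was taken over all 12 arrays, among them the 2 old arrays low in muscle. A gene that rises once these 2 are left out tends to be low on them. The share therefore follows in part from the selection and tests no link to muscle. Among list members, the bone matrix gene Mepe (-1.90) and the ligands Bmp7 (-1.83), Bmp3 (-1.59) and Tgfb2 (-1.24) passed as lower in that fit. Myod1 (1.22), Cox8b (1.27), Nr4a3 (1.45) and Hsph1 (1.14) passed as higher. The old and adult arrays of that fit have different prefixes, so age and prefix cannot be told apart there. Leaving out only the 3 arrays with liver transcripts gave 4 calls (0.0180%), all among the 70: Fggy, a carbohydrate kinase, was higher, at 1.41, and Mirlet7c-1, Rpl31-ps21 and 4930426L09Rik were lower, at -2.10, -1.90 and -1.34.

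Signalling lists had medians near 0. In the Wnt list of 23 genes, 11 lay higher and the median was -0.07 (-0.13 without the 3 arrays): the inhibitors Sost and Dkk1 were the lower ones with an unadjusted p under 0.05, and Rspo3, a secreted amplifier of Wnt signalling, was the higher one. Rspo3 read 3.97, 4.28 and 4.79 in adult and 3.97, 5.16 and 6.30 in old bone, with 1 old array inside the adult range and 5 above it, and differed by 0.91 ± 0.31 (limma adjusted p = 0.666). The Wnt target Axin2 differed by 0.04 ± 0.18 (limma adjusted p = 0.991).

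In the BMP and TGF-beta list of 28 genes the median was -0.03, and -0.18 without the 3 arrays with liver transcripts. Without all 5 arrays that stand apart it was -0.23. In that fit 3 of the 28 passed (Bmp7, Bmp3 and Tgfb2, all lower), and 0.316% of all genes. Over all 12 arrays 0 of the 28 passed. The fit without the 5 arrays was added after the data were seen, and age and prefix cannot be told apart in it. These members were picked out because they passed, so their count does not test a change of the list with age. Tgfb2, a ligand that osteocytes and muscle also make, read 6.26, 7.20 and 7.64 at 6 months and 5.85, 6.31 and 6.51 at 18 months, with a difference of -0.85 ± 0.22 (limma adjusted p = 0.526), and the ligand Bmp7 differed by -0.77 ± 0.39 (limma adjusted p = 0.823). Both differences were larger without the 3 arrays with liver transcripts, at -1.30 and -1.61. Chrdl1, a secreted BMP antagonist, was the 1 member above 0 with an unadjusted p under 0.05, at 0.53 ± 0.19 (limma adjusted p = 0.694). The Notch target Hey1 differed by -0.61 ± 0.28 (limma adjusted p = 0.808), over a list median of -0.01 (-0.26 without the 3 arrays).

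The growth hormone and IGF axis had a median of 0.10 over 14 genes (0.04 without the 3 arrays with liver transcripts), and its 3 genes with an unadjusted p under 0.05 were all higher. Ghr, the growth hormone receptor, read 5.12, 5.67 and 6.02 in adult and 5.79, 6.28 and 7.02 in old bone and differed by 0.72 ± 0.24 (limma adjusted p = 0.663). Igfbp4, an inhibitory IGF carrier, differed by 0.47 ± 0.16 and Igf1 itself by 0.27 ± 0.12 (limma adjusted p = 0.663 and 0.805). Igfbp6, an IGF2 carrier of fibroblasts, had the second largest difference in size, -0.62 ± 0.56 (limma adjusted p = 0.91), from widely spread values.

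Glucocorticoid genes were of interest because the transgene acts on this hormone. The 20 response genes had a median of 0.00, with 11 higher and 2 with an unadjusted p under 0.05 (Errfi1 and Nfkbia, both higher). Fkbp5 and Tsc22d3, direct targets of the glucocorticoid receptor, differed by -0.09 ± 0.15 and 0.15 ± 0.13 (limma adjusted p = 0.958 and 0.909), and the receptor Nr3c1 by 0.05 ± 0.10 (limma adjusted p = 0.971). Pdk4, a brake on glucose oxidation, had the largest difference of that list, -0.57 ± 0.51 (limma adjusted p = 0.909). Hsd11b2, the gene the transgene carries, ran from 3.6 to 5.01 at 6 months and from 3.52 to 5.10 at 18 months over both genotypes. Its means were 3.64 ± 0.04 (SD, n = 3) in wild-type and 4.54 ± 0.56 (SD, n = 3) in HSD2OB-tg bone at 6 months, and 3.6 ± 0.09 and 4.82 ± 0.32 at 18 months (SD, n = 3). The age difference was 0.12 ± 0.17 (limma adjusted p = 0.949), which was smaller than its SE, and at each age every HSD2OB-tg array lay above every wild-type array. Abcb1a, an efflux pump that exports glucocorticoids, differed by -0.53 ± 0.16 (limma adjusted p = 0.649).

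Of the stress and growth lists, the immediate early genes had a median of 0.13, with 12 of 16 higher. In that list 4 had an unadjusted p under 0.05, all higher, and the lowest difference was -0.53. The list included the orphan receptors Nr4a3 and Nr4a1, at 1.01 ± 0.35 and 0.91 ± 0.33 (limma adjusted p = 0.673 and 0.7). Nr4a3 read 3.67, 4.09 and 4.53 at 6 months and 3.47, 5.48 and 5.79 at 18 months. The lowest old value was that of wild-type replicate 1, the array lowest in muscle. With the code prefix as a term the difference was 1.66 and passed, at a limma adjusted p of 0.0309. That fit compares the ages only within the shared prefix, whose 3 adult arrays carry liver transcripts. Hsph1, a heat shock co-chaperone, differed by 0.54 ± 0.22 (limma adjusted p = 0.751). Heat shock and unfolded protein genes had a median of 0.26, with 9 of 12 higher, 3 of them at an unadjusted p under 0.05, and a lowest difference of -0.61. Cell cycle genes lay lower in 17 of 17, with a median of -0.17, with 0 at an unadjusted p under 0.05, and Birc5, or survivin, had the largest difference at -0.38 ± 0.19 (limma adjusted p = 0.816). The cell cycle median was -0.07 without the 3 arrays with liver transcripts, with 5 of 17 higher, and -0.02 without all 5, with 7 higher. Erythroid genes lay lower in 8 of 8, with a median of -0.27, but -0.16 without the 3 arrays (2 of 8 higher) and 0.00 without all 5 (4 of 8 higher). Hemgn, a nuclear factor of red cell precursors, at -0.52 ± 0.21 was the 1 with an unadjusted p under 0.05 (limma adjusted p = 0.751).

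Senescence and secretory genes had a median of 0.04 over 17 genes, and 4 had an unadjusted p under 0.05 (Ccl8, Igfbp4 and Ccl7 higher, Lmnb1 lower). Cdkn2a, which encodes p16 and is a usual marker of senescent cells, differed by 0.08 ± 0.13, Cdkn1a by -0.08 ± 0.29 and Il6 by -0.03 ± 0.13 (limma adjusted p = 0.953, 0.987 and 0.991). Higher chemokines were Ccl8, at 0.77 ± 0.24, and Ccl7, at 0.41 ± 0.11 (limma adjusted p = 0.649 and 0.526), both attractants of monocytes. Lists with medians between -0.10 and 0.13 over all 12 arrays also included those of endothelium, marrow stroma, oxidative phosphorylation, ribosomal proteins, blood stem cells, platelets, mast cells, the circadian clock, nerve and skin. Some of these medians moved in the alternatives. With the code prefix as a term endothelium was at 0.31, the circadian clock at 0.30 and mast cells at 0.22. Without all 5 arrays that stand apart oxidative phosphorylation was at 0.32 (17 of 18 higher), platelets at 0.22 and nerve at -0.21.

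The genes with the lowest p in the downward direction did not pass either. Arhgef26, a guanine nucleotide exchange factor, was the only one of the 8 without overlap, at 3.63, 3.80 and 4.19 in adult and 2.77, 3.21 and 3.49 in old bone, a difference of -0.64 ± 0.14 (limma adjusted p = 0.338) on the brighter of 2 probe sets. Trim29, a tripartite motif protein of epithelia, had the lowest p, with 3.22, 3.81 and 4.09 against 2.79, 2.93 and 3.22 and a difference of -0.76 ± 0.14 (limma adjusted p = 0.261). Snap25, part of the vesicle fusion complex of nerve endings, differed by -1.36 ± 0.29 (limma adjusted p = 0.346), with adult values from 2.66 to 5.42 and old values from 1.96 to 2.70. Gjb1, a connexin that liver and nerve sheaths make, differed by -0.42 ± 0.09 (limma adjusted p = 0.36), and by -0.45 without the 3 arrays with liver transcripts. The remaining 3, Tma16, Tlcd2 and Speer4b, differed by -0.45 ± 0.10, -0.67 ± 0.16 and -1.0 ± 0.25 (limma adjusted p = 0.363, 0.445 and 0.489).

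With the code prefix as a fixed term, 49 genes (0.221%) passed at a limma adjusted p under 0.05, 7 higher (0.0316%) and 42 lower (0.189%) at 18 months. Of these 49, 15 were in the liver list of 16 genes, 6 in the heart list of 8 and 2 in the kidney list of 7. These 3 lists were added after the data were seen, so the overlap is not independent of these arrays. Within the shared prefix, on 3 adult and 4 old arrays, 25 genes (0.113%) passed, and 23 were common to both. The 3 adult arrays of that comparison are those with liver transcripts, so age and those transcripts cannot be told apart within it. The fit with the prefix as a fixed term draws its age difference from the same arrays, so the limit holds there too. Of the 42 lower genes, 0 passed without the 3 arrays. With the prefix and the liver mean as terms together 0 genes passed, and 8 of 17 named genes, Gm4951 among them, had the opposite sign to that over 12 arrays.

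The age difference was then taken in each genotype from the same arrays. In wild-type bone 0 genes were called (984 genes, 4.44%, with an unadjusted p under 0.05), in HSD2OB-tg bone 0 (855 genes, 3.85%), and 0 for the difference between the genotypes' age differences (568 genes, 2.56%), all by limma. Of the immune and fat lists, those of plasma cells, fat cells, complement and interferon response lay higher in both genotypes: plasma cell genes 0.76 in wild-type and 0.73 in HSD2OB-tg bone, adipocyte genes 0.61 and 0.48, complement 0.54 and 0.33, interferon response 0.49 and 0.21. T and NK cell genes were at 0.32 and 0.04, class II genes at 0.31 and 0.07, and neutrophil genes at -0.09 and 0.03. Bone-forming lists lay lower in wild-type bone, osteoblast genes at -0.54 with 0 of 13 higher and osteocyte genes at -0.75 with 1 of 12 higher. In HSD2OB-tg bone they were at 0.10 with 9 of 13 higher and at -0.16 with 4 of 12 higher. Of the 3 transgenic arrays of 6 months, 2 carried liver transcripts and had lower bone cell means than the other, against 1 of 3 wild-type arrays, and the part of this in the contrast was not tested. Chondrocyte genes were at -0.23 and 0.44, of which the transgenic value holds the array high in cartilage.

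**Figure D5:**
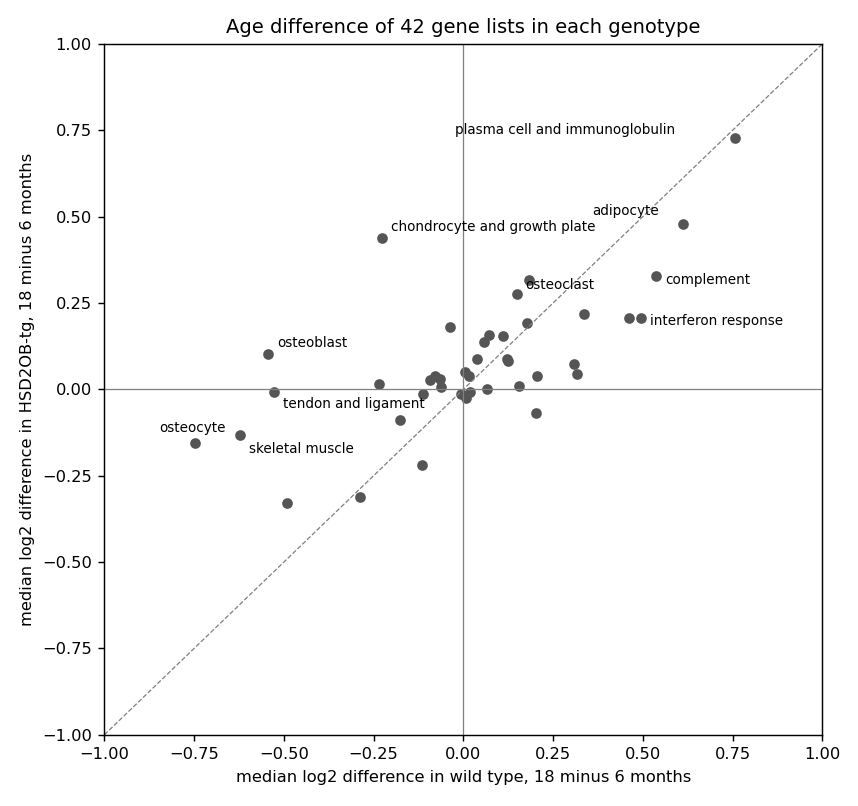
Median log2 difference, 18 minus 6 months, of 42 gene lists in wild-type bone (horizontal) and in HSD2OB-tg bone (vertical), 1 point per list, with the line of equal difference dashed. Plasma cell genes lie at 0.76 and 0.73, osteoblast genes at -0.54 and 0.10, and osteocyte genes at -0.75 and -0.16.

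Single genes with the lowest p for a genotype-dependent age difference are given as values. Avpr1a, a vasopressin receptor, differed with age by -0.42 in wild-type and 0.73 in HSD2OB-tg bone, and the difference between these was 1.16 ± 0.17 (SE, limma adjusted p = 0.52). Pwwp2b, a chromatin reader, differed by -0.51 in wild-type and 0.49 in HSD2OB-tg bone, and Crybb3, a crystallin of the lens, by -0.55 in wild-type and 0.45 in HSD2OB-tg bone. In the other direction Strip2 differed by 0.30 in wild-type and -1.13 in HSD2OB-tg bone, Sowahc by 0.75 in wild-type and -0.28 in HSD2OB-tg bone, and Sstr1, a somatostatin receptor, by 0.34 in wild-type and -0.48 in HSD2OB-tg bone. For these 5 the limma adjusted p of the contrast was 1 after rounding. Sost differed by -1.72 in wild-type and -0.53 in HSD2OB-tg bone and Plin1 by 2.21 in wild-type and 1.38 in HSD2OB-tg bone, contrasts of 1.18 ± 0.67 and -0.84 ± 0.90 (SE, limma adjusted p = 1 and 1).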

How the data were processed

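The deposited log2 values of 24 Affymetrix Mouse Gene 2.1 ST arrays were used, 41034 probe set values per array, of which 12 arrays entered the comparison. The submitters' processing notes name MAS5 with no version. How background was corrected, probes summarised and arrays scaled is not given in the sources used here. Base 2 of the logarithm was inferred from the range of the deposited log2 values. Of the probe sets, 23521 carried 1 gene symbol in the platform annotation, 1814 several and 15699 none. A match to RefSeq (GRCm38.p6) was found for 23328 of the first kind and changed 0 symbols, and RefSeq also supplied the promoter sequences. Where a gene had several probe sets (1082 genes), the one with the highest mean over the 12 arrays was taken, which left 22180 genes.

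The age difference (18 minus 6 months) was estimated by lmFit with genotype as a block and tested two-sided by eBayes (limma version 3.58.1, run under R version 4.3.3). The p-values of the 22180 genes were adjusted by the Benjamini-Hochberg method, and an adjusted p under 0.05 was a call. Each genotype's age difference and their contrast came from a fit with 4 groups of 3 arrays. Array files hold no read depth, and the number of arrays limits the precision. In data simulated for the 18 versus 6 month comparison over 22180 genes, the fit called 34%, 70%, 100% and 98% of 50 genes changed by 0.5, 1, 2 and 3 on the log2 scale, with 11 false calls. These shares apply to the simulated setting and not to each measured gene. In the measured data Snap25 (-1.36) and C4b (1.12) missed the threshold (limma adjusted p = 0.346 and 0.324).

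The comparison and the gene lists were chosen with earlier results of these data known. The lists of liver, kidney, heart, and lung and pancreas genes, and the alternatives that leave out arrays with liver transcripts or low in muscle or that use the liver mean, were added after the data were seen. Genes were named by rule: with fewer than 5 calls in a direction, the 8 with the lowest p in it, the 2 members of each list with the largest difference, 3 genes per direction of the genotype contrast, again by p, and Hsd11b2. Predicted genes, small RNA genes, olfactory, vomeronasal and taste receptor genes, and single variable, diversity and joining segments were counted and not named by this rule. Alternatives were the code prefix as a term, as a random block and as a subset, all 24 arrays, a replicate block, quantile normalization, median centring, a filter on dim genes, trended variance, array weights, a muscle covariate, every probe set in place of 1 per gene, and each array left out in turn.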

Additional observations from a re-analysis of the deposited data

Results flagged for a closer look

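A check for arrays far from the other 5 of their age singled out 6 of the 128 groups of values examined, and chance alone gives about 1 in 20. In HSD2OB-tg replicate 2 of 18 months the chondrocyte and growth plate mean was 6.48, against 3.86 to 4.78 on the other 5 old arrays. Thermogenic fat genes had a mean of 3.50 in wild-type replicate 1 of 18 months, against 4.18 to 4.49 on the others, and this array was also the lowest in skeletal muscle genes. In HSD2OB-tg replicate 1 of 6 months the plasma cell mean was 7.29, against 6.47 to 6.71 on the other adult arrays. The leptin and energy mean was 6.68 in wild-type replicate 3 of 6 months, against 6.4 to 6.50. Among single genes, Slfn5 read 6.6 in wild-type replicate 2 of 18 months, against 5.89 to 6.05, and Gjb1 read 1.76 in HSD2OB-tg replicate 1 of 6 months, against 2.00 to 2.14.

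Outside the arrays compared, HSD2OB-tg replicate 3 of 12 months had a liver mean of 5.33, against 1.94 to 2.99 on the other 5 arrays of that age, and its kidney mean was 3.57, against 1.81 to 2.38. Its heart mean, 3.46, lay next to the highest of the other arrays of that age, 3.45.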

How the results depend on the processing

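The number of genes called between 18 and 6 months (1) was 49 with the code prefix as a term, 25 within the shared prefix, 0 with all 24 arrays, 0 with all 24 and the prefix, 2 with the replicate block, 2 with the muscle covariate, 4 without the 3 arrays with liver transcripts, 2 with the liver covariate, 0 with the prefix and the liver covariate together, 70 without all 5 arrays, and 0 to 2 without single arrays (0 in 9 cases). In wild-type bone (0) it was 20 with the prefix, 11 within it and 1 with the muscle covariate, and in HSD2OB-tg bone (0) 28 with the prefix and 13 within it; without single arrays it was 0 in both, and 0 for the genotype contrast. Within a genotype, same-numbered arrays of 18 and 6 months did not deviate together (correlations of 0.10, 0.04 and -0.07 in wild-type and -0.11, 0.10 and -0.26 in HSD2OB-tg bone). Of 6 arrays, 1 was closest to its own number, so no sign of a pairing across these ages was seen. With so few arrays, which also differ in liver and muscle transcripts, this check cannot exclude a pairing. Whether the numbers pair wild-type with HSD2OB-tg arrays of the same age was not tested. Gene values were computed in 28 alternatives beside the one described next (27 for Gjb1), and in these all 17 named genes kept their sign. These 17 were named after their low p on the same arrays, and most alternatives refit nearly the same arrays. A kept sign therefore follows largely from that choice and adds little weight. Genes named only as list members are not among the 17, nor is Hsd11b2, whose sign was not kept (values below). List medians were computed in the same 28 for 30 lists and in 27 for 12 lists with dim members, and 14 of 42 kept their sign, while 20 list medians changed sign without some single array. The remaining alternative, prefix and liver covariate together, was added after the data were seen. In it genotype, prefix and liver mean accounted for 99.7% of the variation of the age term, so age had almost no variation of its own. It gave -0.87 for Gm4951 (SE 2.05), -2.09 for Lipg, -0.54 for Irf4, -1.13 for Cd244a, 2.89 for Arhgef26, 8.66 for Snap25, 0.98 for Gjb1 and 2.89 for Speer4b, all of opposite sign, and moved 40 list medians by more than the spread between arrays, against 15 values in the others. Hsd11b2 (0.12) was -0.089 without the 3 arrays, -0.030 with the liver covariate, -0.10 without 5 arrays, and -0.034 (without HSD2OB-tg replicate 1 of 6 months) to 0.21 without single arrays. For Gm4951 the adjusted p ranged from 0.0161 with trended variance to 0.911 with prefix and liver covariate together. Apart from what is stated here on that fit, the cause of these differences was not tested. Adult and old arrays differ in code prefix and in transcripts of other tissues, and no alternative separated both from age.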
